A study of Mus musculus with 12 samples.

Results

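The genes described here are 8 mouse genes of polyamine metabolism, Odc1, Amd1, Srm, Sms, Oaz1, Oaz2, Azin1 and Sat1. They were taken by symbol from a named set out of 49585 genes with read counts. Of these, 7 were matched through the symbols in the authors' table of 10126 genes, and Amd1 was matched through the genome annotation. All 8 were measured in all 12 libraries. The libraries came from naive CD4 T cells isolated from the lymph nodes of female mice and cultured for 20 h on plates coated with anti-CD3 (5 μg/ml) and anti-CD28 (1 μg/ml). Cells received cycloheximide (0.1 mg/ml) for 1 min before lysis. Both groups carried floxed Rnmt alleles, in which loxP sites flank exon 3, on a C57B6/J background. Control cells were Rnmt fl/fl CD4cre -, and Rnmt cKO cells were Rnmt fl/fl CD4cre +, so that the gene was deleted by Cre driven by the Cd4 promoter, which acts during thymic development. RNMT adds the methyl group to the guanosine cap at the start of mRNA. For each genotype, 3 libraries of total cytoplasmic RNA and 3 libraries of ribosome protected fragments (RPF) were sequenced. RPF are the stretches of mRNA shielded by ribosomes, so RPF relative to total RNA gives the translation efficiency (TE) of a gene. No source used here states an age.

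Polyamines (putrescine, spermidine and spermine) are small, positively charged molecules that bind nucleic acids, and proliferating cells, activated T cells among them, make large amounts of them. ODC1 decarboxylates ornithine to putrescine. AMD1 makes the aminopropyl donor from S-adenosylmethionine, SRM uses that donor to turn putrescine into spermidine, and SMS turns spermidine into spermine. The antizymes OAZ1 and OAZ2 bind ODC1, send it to the proteasome and restrain polyamine uptake, whereas AZIN1 is an inactive relative of ODC1 that binds antizyme in its place. SAT1 acetylates spermidine and spermine and so starts their breakdown and export.

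Antizyme is made only when the ribosome skips 1 base at the stop codon that ends the first reading frame, and polyamines favour that skip. The stretches around this site in Oaz1 and Oaz2 are shown because most of the coding sequence of both genes lies beyond it. Ribosomes in the first frame also leave footprints, and RPF were counted per gene, so these values do not measure the skip. Capitals mark the last codon of the first frame and its stop codon. The sequences were read from GENCODE transcripts of GRCm38, from chr10:80828277-80828336 on the plus strand for Oaz1, with 68 codons before the shift, and from chr9:65686254-65686313 on the plus strand for Oaz2, with 32 codons before the shift. The skipped base, the T of the stop codon, lies at position 80828295 of chromosome 10 and at position 65686272 of chromosome 9, and the full proteins have 227 and 189 residues. Both sites hold the same 6 bases, TCCTGA.
Oaz1: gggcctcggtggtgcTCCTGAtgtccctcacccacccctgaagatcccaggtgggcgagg
Oaz2: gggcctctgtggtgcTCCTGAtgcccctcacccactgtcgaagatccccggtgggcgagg

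A property of the members' sequences bears on every RPF value given here. The authors counted reads that aligned to 1 place in the genome, and many of these genes have processed pseudogenes, intronless copies that keep the coding sequence. Each coding sequence was divided into all windows of 30 bases, about the length of a footprint, and each window was searched in the annotated transcripts of all other genes. Sms and Amd1 had no window of their own in the coding sequence (100% shared). The share was 90.95% for Oaz1, where 59 of 652 windows were unique, and 83.01% for Odc1, where 230 of 1354 were unique. It was 63.57% for Oaz2, 42.56% for Sat1, 18.13% for Srm and 0% for Azin1. Over 80% of windows were shared in 4 of the 8 genes, against 5.25% of 10258 coding genes past the total RNA filter, whose median was 0%. The search counted exact matches to annotated transcripts only. Footprints of Sms, Amd1, Oaz1 and Odc1 could therefore be counted over a small part of the coding sequence or none of it, whereas total RNA reads in their untranslated regions mostly stayed unique. Amd1 was the exception, with 88.99% of windows in its untranslated regions shared as well.

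Amd2, a gene of the same chromosome, is a near-identical copy of Amd1, and the pseudogene Amd-ps3 shared 96.92% of the coding windows of Amd1. The coding sequences of 1002 bases differed at 1 position, marked by the capital in the stretch below, which starts at coding base 766. Coordinates are chr10:40290157-40290216 for Amd1 and chr10:35710735-35710794 for Amd2, both on the minus strand of GRCm38.
Amd1: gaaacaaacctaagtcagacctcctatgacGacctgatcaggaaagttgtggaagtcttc
Amd2: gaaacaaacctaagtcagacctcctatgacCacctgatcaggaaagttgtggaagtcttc

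Total RNA libraries held 15079703 to 22629563 reads on genes, and RPF libraries 4123271 to 10661356, the lowest being that of Rnmt cKO replicate 3. Rnmt total RNA was 94.6 ± 0.75 CPM in control and 30.7 ± 1.56 CPM in Rnmt cKO (SD, n = 3), and Rnmt RPF was 97.0 ± 8.27 and 10.2 ± 0.50 CPM. CPM here are counts scaled to a common library size, after TMM correction. All levels, fold changes and TE are thus relative to the other genes of a library, and these libraries do not measure amounts per cell. In separate assays the authors found less mRNA per activated Rnmt cKO cell than per control cell. They cautioned that relative values then understate falls of single genes and overstate rises. The words rose and fell below refer to these relative values. Summed total RNA of the CD4 T cell markers Cd3e, Cd3g, Trac, Cd4 and Cd28 was 2217 to 2354 CPM in control and 1869 to 2052 CPM in Rnmt cKO libraries. Of these 5, Cd3g was 427.5 to 468.2 CPM in control and 162.5 to 221.2 CPM in Rnmt cKO, whereas the ranges of Cd3e and Cd28 overlapped between the genotypes. Summed CD8 T cell markers were 21.4 to 41.7 CPM in control and 9.85 to 26.4 CPM in Rnmt cKO. NK cell markers summed to 0.05 to 0.11 and 0.65 to 1.08 CPM, with no overlap, myeloid markers to 1.02 to 1.49 and 0.99 to 2.38 CPM, and Foxp3 was 0.70 to 0.90 and 0.36 to 0.88 CPM. All 4 activation markers (Cd69, Il2ra, Il2, Tnfrsf4) were higher in every Rnmt cKO library, with sums of 789 to 876 CPM against 426 to 505 CPM. The B cell markers Cd79a and Ms4a1 summed to 1.96 to 13.8 CPM in control and 8.04 to 43.2 CPM in Rnmt cKO. The part of these differences in the values that follow was not tested. In bulk RNA, fewer cells of a type and less RNA per cell cannot be told apart.

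In total RNA, Srm rose in Rnmt cKO cells, and 3 genes of the antizyme system, Oaz1, Oaz2 and Azin1, fell. These were 4 called genes among 8 tested, where called means an adjusted p under 0.05. Over all 11519 genes tested, 54.2% were called and 28% were called as decreased, so the members' count of 4 (3 of them decreased) was close to the background. The median log2 fold change was -0.13 over the 8 members and 0.00 over all genes tested. Overlap of the groups is given per gene below, and the share of all genes without overlap was not computed. With 3 libraries against 3, an exact permutation test of a single value cannot go below p = 0.1, so that the values below rest on the model fitted across all genes.

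**Figure D1:**
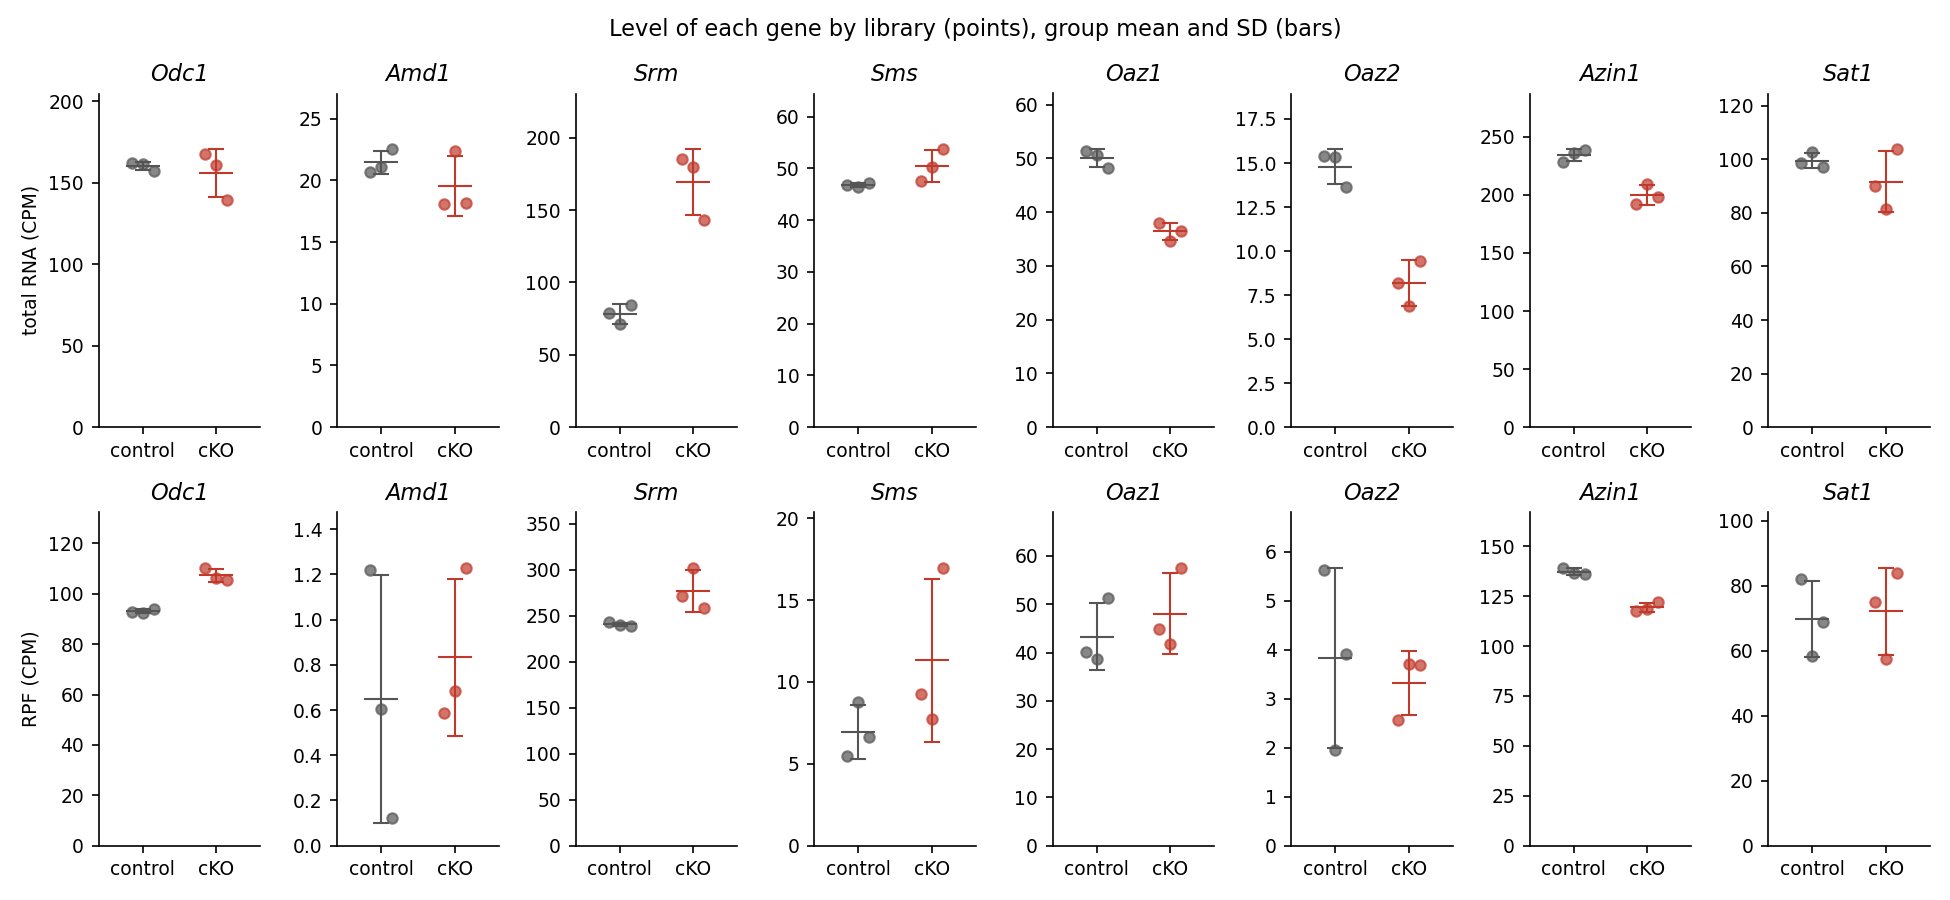
TMM-scaled CPM (vertical axes, each starting at 0 and set per gene) of the 8 genes in total RNA (upper row) and RPF (lower row), with 1 point per library and bars for the mean and SD of 3 libraries. Total RNA of Srm, Oaz1, Oaz2 and Azin1 separates the genotypes, as does that of Sms, which was not called. In RPF the Odc1, Srm and Azin1 libraries separate and those of the other members overlap.

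Among the synthesis genes, Srm (chromosome 4, 148591503 to 148594993, plus strand) stood at 78.8, 70.9 and 84.6 CPM of total RNA in control replicates 1 to 3. In Rnmt cKO it was 185.2, 179.6 and 143.4 CPM. All Rnmt cKO libraries were above all control libraries, with replicate 3 the lowest of them. The fold change was 2.17 (log2 1.12, SE 0.11, adjusted p = 0.00012). Odc1 (chromosome 12, 17544794 to 17551505, plus strand), the first enzyme of the pathway, was 162.2, 161.7 and 157.5 CPM in control and 167.7, 160.7 and 139.3 CPM in Rnmt cKO. These groups overlapped, with a log2 fold change of -0.04 (95% interval -0.21 to 0.13, adjusted p = 0.64), and without Rnmt cKO replicate 3 the sign turned to 0.04.

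Sms (chromosome X, 157443855 to 157492287, minus strand) was 46.8, 46.5 and 47.3 CPM in control and 47.6, 50.2 and 53.7 CPM in Rnmt cKO. The groups did not overlap, but the difference did not pass the test (log2 0.11, 95% interval -0.04 to 0.26, adjusted p = 0.19). Amd1 (chromosome 10, 40287458 to 40302186, minus strand) was 20.7, 21.1 and 22.5 CPM in control and 18.1, 22.3 and 18.2 CPM in Rnmt cKO, with overlapping groups (log2 -0.13, 95% interval -0.37 to 0.10, adjusted p = 0.30). Since most windows of the Amd1 mRNA are shared, these values count the reads of its unshared stretches.

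In the antizyme system, Oaz1 (chromosome 10, 80826656 to 80829290, plus strand) was 51.4, 50.6 and 48.1 CPM in control and 38.0, 34.7 and 36.5 CPM in Rnmt cKO. No library of one genotype reached into the range of the other, and Oaz1 fell by 0.46 on the log2 scale (SE 0.07, adjusted p = 0.00076). Oaz2 (chromosome 9, 65668001 to 65690300, plus strand), the rarer antizyme, was 15.4, 15.3 and 13.6 CPM in control and 8.21, 6.86 and 9.46 CPM in Rnmt cKO. It fell by 0.85 on the log2 scale (SE 0.13, adjusted p = 0.0011), again with no overlap. The antizyme inhibitor Azin1 (chromosome 15, 38487427 to 38519266, minus strand) was 228.5, 235.8 and 238.4 CPM in control and 192.3, 209.5 and 198.3 CPM in Rnmt cKO, and fell by 0.23 (SE 0.06, adjusted p = 0.0096). Both antizymes and their inhibitor were thus called as decreased in total RNA, as were 28% of all genes tested.

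Sat1 (chromosome X, 155213132 to 155216449, minus strand), the acetyltransferase, was 98.7, 102.7 and 97.1 CPM in control. In Rnmt cKO it was 89.9, 81.4 and 103.8 CPM, with replicate 3 above every control library and the others below. The difference did not pass the test (log2 -0.12, 95% interval -0.32 to 0.09, adjusted p = 0.29). Without Rnmt cKO replicate 3 it was -0.21 with an adjusted p of 0.032, so 1 library decided this call.

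Myc, a transcription factor known to drive several genes of this pathway, Odc1 and Srm among them, was 46.9, 48.3 and 67.7 CPM of total RNA in control and 170.6, 206.0 and 107.8 CPM in Rnmt cKO. It rose by 1.57 on the log2 scale (SE 0.24, adjusted p = 0.00095). Its part in the values of Srm, Odc1 or the other members was not tested.

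In RPF, Odc1 rose and Azin1 fell, each by a small amount. Of 7 members tested, 2 were called, against 29.8% of all 11428 genes tested, which makes their share near the background. The median log2 fold change was 0.14 over the 7 members and 0.01 over all genes. Amd1 was not tested, because its RPF counts of 13, 4 and 1 in control and 5, 7 and 5 in Rnmt cKO did not pass the filter on low counts.

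Odc1 RPF was 92.9, 92.5 and 94.2 CPM in control and 110.4, 106.1 and 105.3 CPM in Rnmt cKO. The groups were tight and did not overlap, and the log2 fold change was 0.20 (SE 0.06, adjusted p = 0.033). Azin1 RPF was 139.3, 136.4 and 136.1 CPM in control and 117.7, 118.4 and 122.1 CPM in Rnmt cKO, and fell by 0.20 (SE 0.06, adjusted p = 0.027). Neither call was firm. Odc1 lost it in each fit that left out control replicate 1, 2 or 3 or Rnmt cKO replicate 1 or 2 (adjusted p 0.095, 0.073, 0.082, 0.098 and 0.062), with log2 values of 0.19 to 0.22. Azin1 lost it without control replicate 1 or 3 or Rnmt cKO replicate 1 or 2 (adjusted p 0.071, 0.061, 0.093 and 0.075), with log2 values of -0.21 to -0.19. With DESeq2 the adjusted p was 0.096 for Odc1 and 0.10 for Azin1.

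Srm had the highest RPF level of the 8 genes, at 242.9, 239.5 and 239.3 CPM in control and 271.0, 302.3 and 258.4 CPM in Rnmt cKO. The groups did not overlap, but the difference of 0.21 on the log2 scale (SE 0.07, 95% interval 0.05 to 0.36) missed the threshold with an adjusted p of 0.052. It passed in 5 of 14 alternatives, with DESeq2 (0.22, adjusted p = 0.040), without TMM (0.23, adjusted p = 0.047), with at least 10 counts in every library (adjusted p = 0.049), with protein-coding genes only (adjusted p = 0.032) and without Rnmt cKO replicate 3 (0.26, adjusted p = 0.035). The interval of the RPF change lay wholly below that of the total RNA change, 0.87 to 1.37.

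The other members gave no RPF call. Oaz1 was 40.0, 38.6 and 51.2 CPM in control and 44.8, 41.8 and 57.6 CPM in Rnmt cKO (log2 0.14, 95% interval -0.21 to 0.48, adjusted p = 0.52). In both groups replicate 3 was the highest, and the groups overlapped. Sat1 was 82.0, 58.5 and 68.8 CPM in control and 74.9, 57.5 and 83.9 CPM in Rnmt cKO (log2 0.03, adjusted p = 0.89). Oaz2 rested on 60, 13 and 32 counts in control and 22, 38 and 15 in Rnmt cKO, and the 95% interval of its log2 fold change ran from -1.15 to 0.66, which includes the value of -0.85 in its total RNA. Sms rested on 54 to 79 counts per library, with a log2 fold change of 0.67 (95% interval -0.06 to 1.41, adjusted p = 0.15), and Rnmt cKO replicate 3 alone, at 17.0 CPM, was well above the other 5 libraries, which lay between 5.45 and 9.24 CPM. Without it the log2 fold change of Sms was 0.31.

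**Figure D2:**
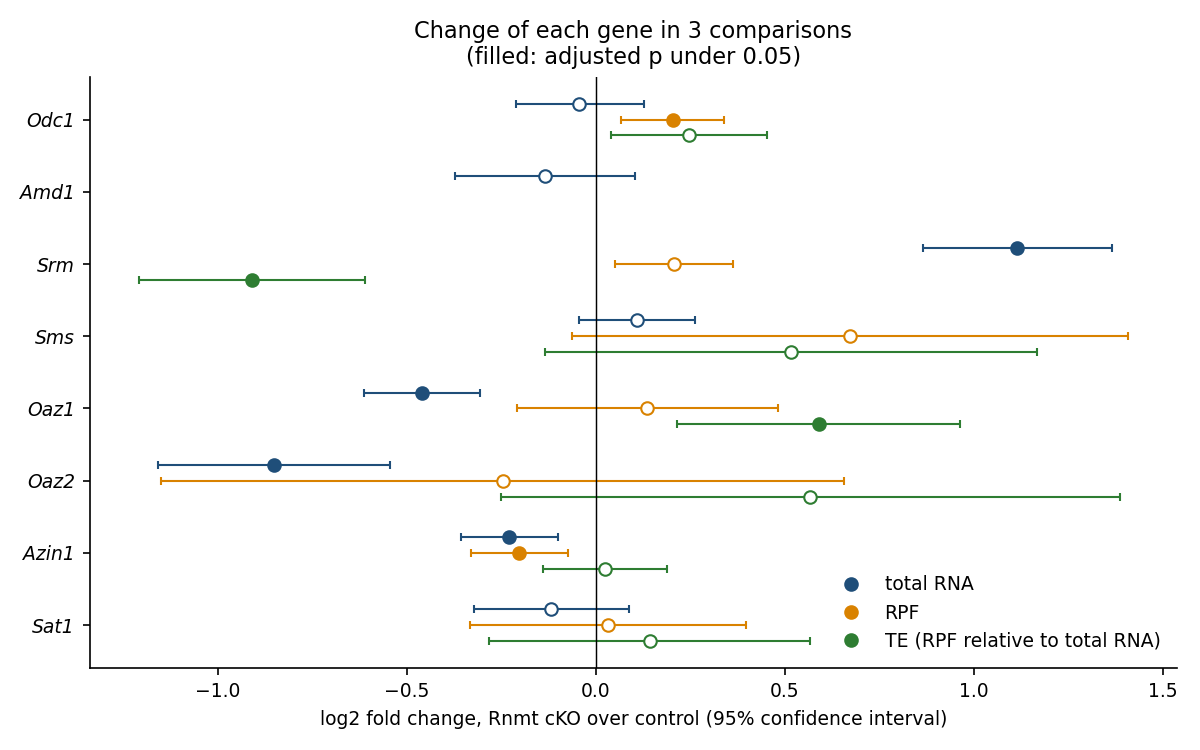
Log2 fold change (Rnmt cKO over control, horizontal axis) with its 95% confidence interval for each gene in total RNA, RPF and TE, filled where the adjusted p is under 0.05. Srm moves right in total RNA (1.12) and left in TE (-0.91), and Oaz1 moves left in total RNA (-0.46) and right in TE (0.59), with RPF values of 0.21 and 0.14 in between.

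TE, tested as the interaction of genotype with library kind over all 12 libraries, was called for 2 of 7 members. Srm fell and Oaz1 rose. Over all 10668 genes tested, 9.81% were called. The median log2 change in TE was 0.25 over the 7 members and 0.04 over all genes.

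For Srm, the log2 ratio of RPF to total RNA was 1.62, 1.75 and 1.50 in control and 0.55, 0.75 and 0.85 in Rnmt cKO, with no overlap. The change in TE was -0.91 (SE 0.14, adjusted p = 0.0010), a ratio of 0.53 between the genotypes. In control cells the mean ratio of Srm was higher than that of 93.9% of the genes tested, and in Rnmt cKO cells higher than that of 73.4%. Thus the share of Srm in total RNA libraries was 2.17 times as high in Rnmt cKO as in control, while its share in RPF libraries was 1.15 times as high. For Srm, TE kept its direction and its call in all 13 alternative fits, from -0.98 to -0.83.

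For Oaz1, the log2 ratio was -0.36, -0.39 and 0.09 in control and 0.23, 0.26 and 0.65 in Rnmt cKO. The groups did not overlap, and the change in TE was 0.59 (SE 0.17, adjusted p = 0.049). The ratio stood above that of 33.7% of tested genes in control and 59.0% in Rnmt cKO. This call was lost in the fits without control replicate 1 (0.51, adjusted p = 0.21), control replicate 2 (0.51, adjusted p = 0.18), Rnmt cKO replicate 1 (0.66, adjusted p = 0.11), Rnmt cKO replicate 2 (0.64, adjusted p = 0.063) and Rnmt cKO replicate 3 (0.46, adjusted p = 0.095), and the direction stayed the same in each. In the search of 30-base windows, 59 of 652 in the Oaz1 coding sequence were not shared with Oaz1-ps, its processed pseudogene. The counted footprints were not placed on positions here. Oaz1-ps itself held 37 to 61 counts in total RNA and 0 to 13 in RPF.

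The second antizyme gave a TE change of 0.57 with a wide interval of -0.25 to 1.39 (adjusted p = 0.39). Odc1 had log2 ratios of -0.80, -0.80 and -0.74 in control and -0.60, -0.60 and -0.40 in Rnmt cKO, which did not overlap, but the change of 0.25 (95% interval 0.04 to 0.45) gave an adjusted p of 0.13. Azin1, whose coding sequence is unique, had nearly equal ratios, with a mean of -0.77 in control and -0.74 in Rnmt cKO and a change of 0.03 (95% interval -0.14 to 0.19, adjusted p = 0.88). For Sms the change was 0.52 (95% interval -0.13 to 1.17, adjusted p = 0.31) and for Sat1 0.14 (95% interval -0.28 to 0.57, adjusted p = 0.71). Since Sms had no unique 30-base coding window, its RPF and TE values may not measure translation of its coding sequence.

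The ratio of RPF to total RNA was also compared with the shared coding sequence. Sms, with all coding windows shared, had a control log2 ratio of -2.70, above that of only 1.0% of tested genes, and Oaz2, with 63.57% shared, had -1.91. Azin1, with no shared window, had -0.77, and Odc1, with 83.01% shared, had -0.78. These ratios were not corrected for length. The longest coding sequence is 1344 of 5031 exonic bases in Azin1, 1098 of 3717 in Sms and 567 of 2035 in Oaz2. In Odc1 it is 1383 of 2208 and in Srm 906 of 1338. Over the genes tested for TE, the median control log2 ratio was -0.43 for the 471 genes with over 80% of windows shared and 0.22 for the 5912 genes with none. The median of all tested genes was 0.17. The part of shared sequence or of untranslated length in any single ratio, or in a difference between the genotypes, was not tested.

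**Figure D3:**
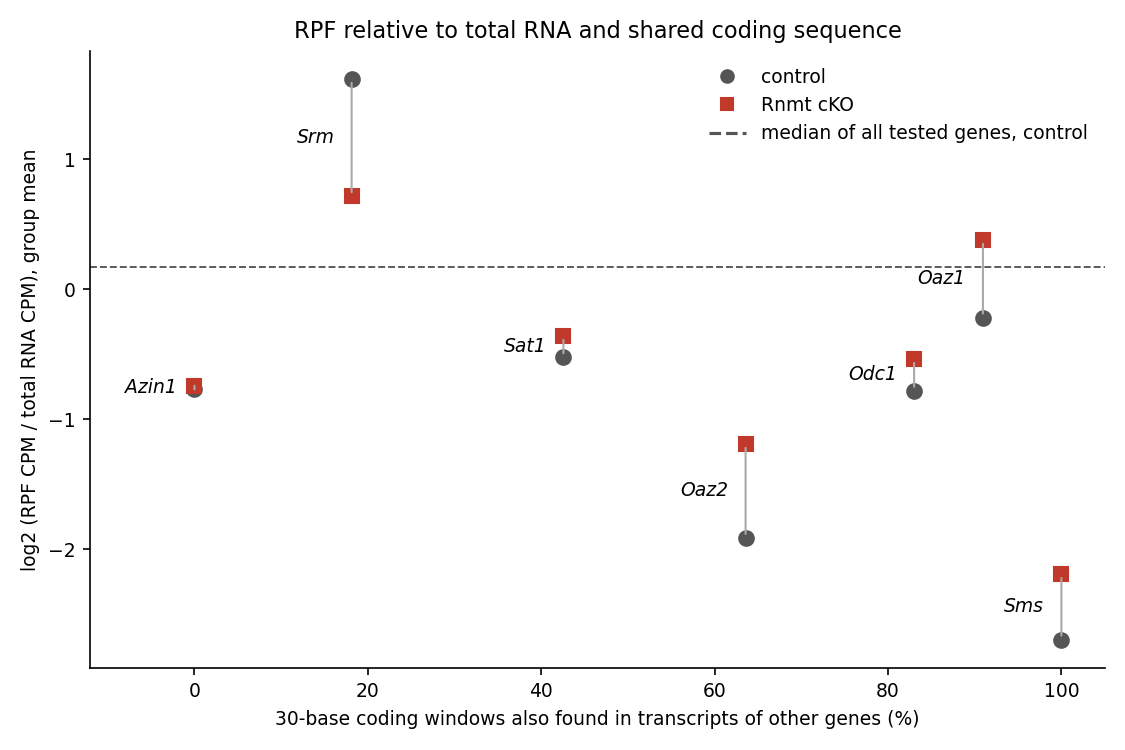
Mean log2 ratio of RPF CPM to total RNA CPM (vertical axis) against the share of 30-base coding windows also found in transcripts of other genes (horizontal axis, %) for the 7 members tested, in control (circles) and Rnmt cKO (squares). Sms and Oaz2 are lowest, at -2.70 and -1.91 in control, and Srm is the only member above the dashed median of 0.17 in control. Azin1, without any shared window, is at -0.77 in control. The ratios are not corrected for length.

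Levels per length are given as RPKM, CPM divided by the length in kilobases of the union of annotated exons. Sat1 had the highest level of uniquely placed reads among the 8 genes in control total RNA, at 84.1 ± 2.43 RPKM (SD, n = 3). It was followed by Odc1 at 72.7 ± 1.18, Srm at 58.4 ± 5.12, Oaz1 at 46.6 ± 1.58, Azin1 at 46.6 ± 1.02, Sms at 12.6 ± 0.11, Oaz2 at 7.27 ± 0.49 and Amd1 at 6.70 ± 0.30 RPKM. The libraries of Oaz1 and Azin1 overlapped, as did those of Oaz2 and Amd1, and the other neighbours in this order did not. In Rnmt cKO total RNA Srm came first at 126.6 ± 17.0 RPKM. Lengths were not reduced for shared windows, so the order of the messages themselves may differ.

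In control RPF, Srm led with 179.8 ± 1.50 RPKM, before Sat1 at 59.0 ± 9.96, Odc1 at 42.2 ± 0.38, Oaz1 at 40.3 ± 6.45 and Azin1 at 27.3 ± 0.35. Oaz2 and Sms, at 1.89 ± 0.90 and 1.87 ± 0.45, overlapped, as did Odc1 and Oaz1, and Amd1 was last at 0.20 ± 0.17 RPKM. Divided by coding length instead, Azin1, which has long untranslated regions, moved up to the third place at 102.1 ± 1.31, above Odc1 at 67.4 ± 0.61 RPKM. For genes with copies these are levels of uniquely placed reads only.

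**Figure D4:**
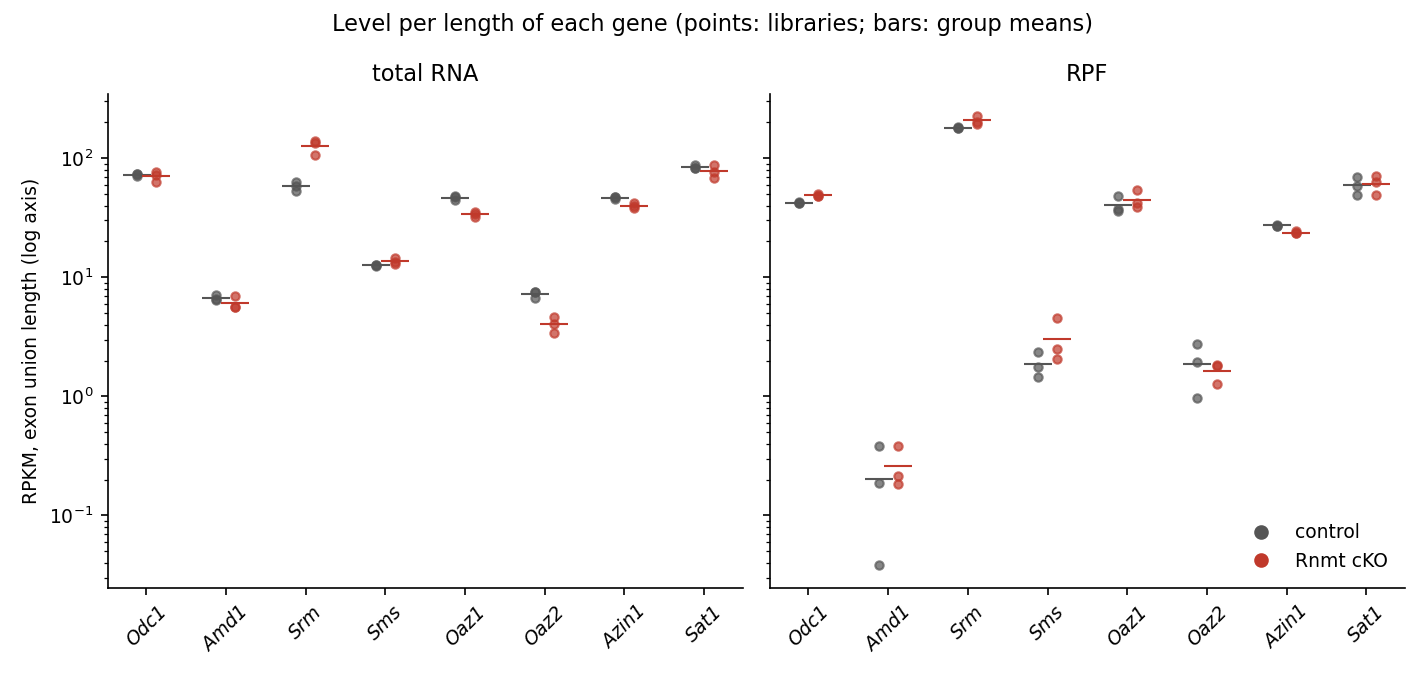
RPKM over exon union length (log axis) of the 8 genes in total RNA (left) and RPF (right), with points for libraries and bars for group means. Srm is highest in RPF in both genotypes (179.8 and 207.2 RPKM), and Amd1, Sms and Oaz2 are lowest in RPF.

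The members shared few features at the start of their mRNA. Of the 8 principal transcripts, 5 (Odc1, Azin1, Sat1, Sms and Amd1) had an upstream ATG in the 5′ leader, against 51.46% of 21776 coding transcripts. Their leaders had a median length of 304.5 bases against 159 over all transcripts. Of the 4 members called in total RNA, Srm, Oaz1 and Oaz2 had no upstream ATG and Azin1 had 3. A link between upstream ATGs and the RNA changes was not tested. No member began with a C followed by at least 4 more pyrimidines, a pattern called TOP-like here, which 2.26% of all transcripts had. These are annotated starts, not starts measured in these cells.

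The rest of the pathway was described by a list of 26 other genes, of which 18 passed the filter in total RNA and RPF. In total RNA 6 of the 18 rose and 4 fell, a share near the background of 54.2%. In RPF 3 rose and none fell by edgeR (6 of the 18 had an unadjusted p under 0.05, and DESeq2 called 3 in all), against 29.8% of all genes tested. In TE, where 9.81% of all genes were called, edgeR called 0 of 18 (3 had an unadjusted p under 0.05). Slc3a2 was called in TE in 5 of 13 alternatives, with DESeq2 (-0.36, adjusted p = 0.020), with the replicate block (-0.35, adjusted p = 0.046), without TMM (adjusted p = 0.047), with protein-coding genes only (adjusted p = 0.043) and without Rnmt cKO replicate 3 (-0.41, adjusted p = 0.035). Without control replicate 1, or without Rnmt cKO replicate 1, 5 of the 18 were called in total RNA, and without control replicate 2, 5 were called in RPF.

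Of the 4 transport genes tested, 3 rose in total RNA and 1 fell, where 54.2% of all genes were called in either direction. Slc7a1, a carrier of arginine and ornithine, was 70.5, 78.0 and 93.8 CPM in control and 122.4, 162.6 and 91.8 CPM in Rnmt cKO, where replicate 3 lay inside the control range, and it rose by 0.64 (SE 0.20, adjusted p = 0.026). This call was lost without control replicate 1 (0.54, adjusted p = 0.093), control replicate 2 (0.61, adjusted p = 0.077) or Rnmt cKO replicate 1 (0.67, adjusted p = 0.050). It was also lost with the replicate block (0.61, adjusted p = 0.059). Its RPF rose by 0.54 (SE 0.07, adjusted p = 0.0014), with no overlap. Slc3a2, the heavy chain of several amino acid carriers, rose by 0.57 in total RNA (SE 0.08, adjusted p = 0.00075) and by 0.22 in RPF (SE 0.06, adjusted p = 0.025). The RPF call was lost without control replicate 1 or 3 or Rnmt cKO replicate 1 or 2 (adjusted p 0.093, 0.054, 0.067 and 0.057). It was also lost with the edgeR exact test (adjusted p = 0.065) and with all genes unfiltered (adjusted p = 0.14). Slc18b1 did not pass the filter.

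Spermidine also supplies the group from which hypusine, a modified lysine of the translation factor EIF5A, is built. Of the 4 genes of this step, 2 rose in total RNA and 1 in RPF, near the shares of 54.2% and 29.8% called over all genes. Eif5a rose by 0.41 in total RNA (SE 0.09, adjusted p = 0.0045), while its RPF differed by 0.15 (95% interval -0.04 to 0.33, adjusted p = 0.21). Dohh, the hydroxylase that completes hypusine, rose by 0.44 in total RNA (adjusted p = 0.0038) and by 0.57 in RPF (SE 0.10, adjusted p = 0.0033). Dhps, which catalyses the first step, differed by 0.09 and 0.10 and was not called.

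Of the 8 genes of methionine supply and salvage, which feed AMD1 and recycle a by-product of SRM and SMS, 1 rose and 3 fell in total RNA. This count of 4 in 8 was near the background of 54.2%. None was called in RPF by the edgeR quasi-likelihood test, where 3 had an unadjusted p under 0.05, or by DESeq2, although Ahcy passed in other fits. Ahcy, which clears S-adenosylhomocysteine, was 33.6, 33.5 and 29.4 CPM in control and 18.0, 14.8 and 15.4 CPM in Rnmt cKO, and fell by 1.01 on the log2 scale (SE 0.10, adjusted p = 0.00013). Its RPF differed by -0.75 (SE 0.25, adjusted p = 0.056). It passed in 6 of 14 alternatives, which were the edgeR exact test (adjusted p = 0.046), all genes unfiltered (0.025), protein-coding genes only (0.044), a minimum of 10 counts per library (0.048), the replicate block (0.032) and the fit without control replicate 3 (-0.91, adjusted p = 0.041). Enoph1, of the salvage pathway, fell by 0.51 in total RNA (SE 0.07, adjusted p = 0.00065), with -0.25 in RPF (adjusted p = 0.082), which passed without control replicate 2 (-0.34, adjusted p = 0.034).

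Among other enzymes and paralogs only Smox and Paox, the polyamine oxidases, passed the filter, and neither was called by edgeR or DESeq2. Smox gave -0.35 in total RNA (adjusted p = 0.071, and -0.44 with 0.043 without control replicate 3) and 0.66 in TE (adjusted p = 0.084). Azin2, Oaz3, Amd2, Sat2, Agmat, Arg1 and Arg2 did not pass. Of the intronless copies, Sms-ps held 21 to 34 counts in total RNA and Amd2 6 to 12.

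**Figure D5:**
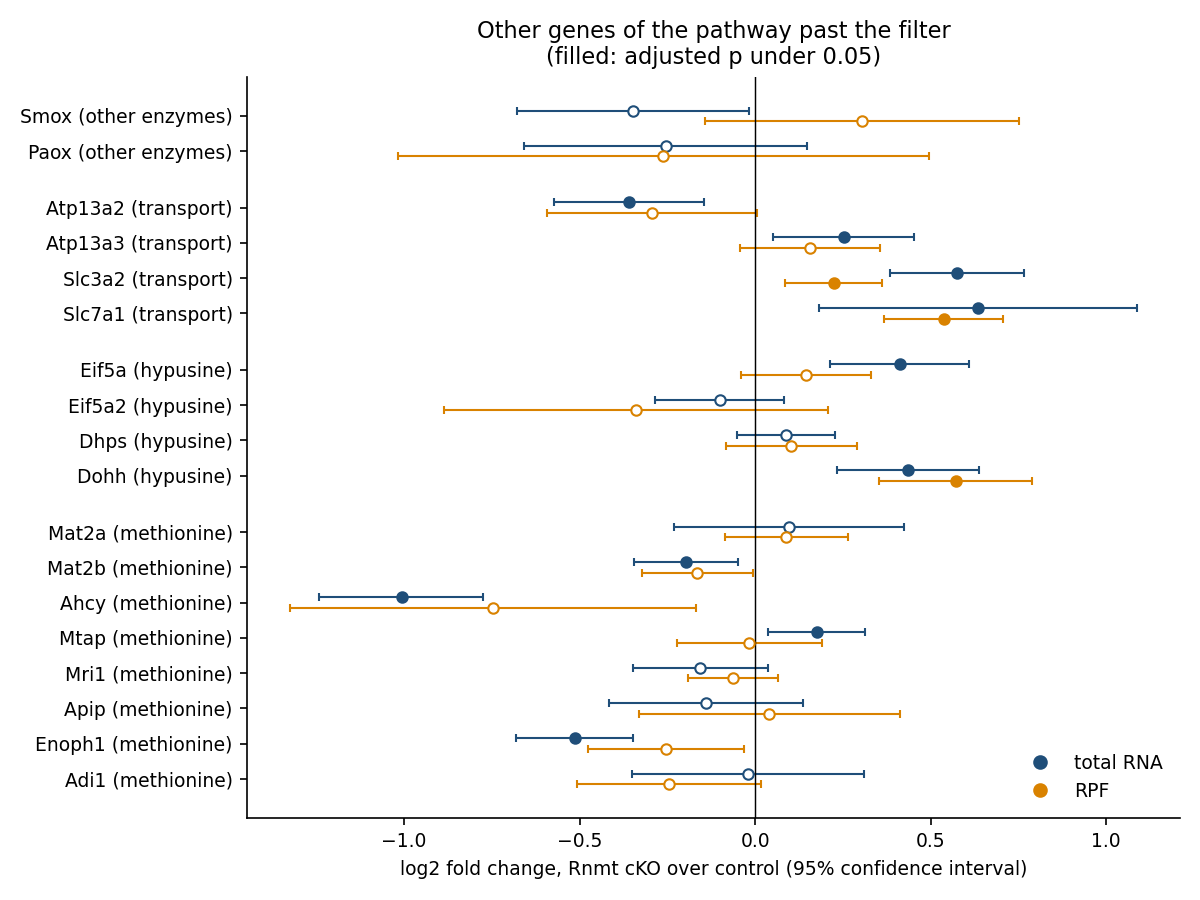
Log2 fold change (Rnmt cKO over control, horizontal axis) with 95% confidence intervals in total RNA and RPF for the 18 other pathway genes past the filter, filled where the adjusted p is under 0.05. Slc7a1, Slc3a2, Eif5a and Dohh lie right of 0 in total RNA, and Ahcy (-1.01) lies farthest left.

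The genes most like Odc1 over the 12 libraries, by Pearson's r of log2 CPM centred within total RNA and within RPF, were Bub1b (r = 0.892), Mad2l1 (0.860) and Xpot (0.839) among 6674 genes of at least 4 log2 CPM. Those most like Oaz1 were Malat1 (0.934), Rpph1 (0.922) and Coasy (0.903). The 12 points share genotype and library depth, and these values are a description only.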

How the data were processed

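Per the authors' methods, Illumina TruSeq Ribo Profile libraries were trimmed with Cutadapt, cleared of rRNA and tRNA reads with Bowtie, and aligned to mm10 (GRCm38, GENCODE vM12) with STAR 2.5.2b. The deposited counts are whole numbers of uniquely aligned reads per gene, and the reverse strand counts were used. The deposited signal per library, which the authors scaled with edgeR, equalled these counts up to 1 factor in all 12 libraries and was used for symbols; the authors' fold changes and p-values were not used. Reads that named no gene (41.1% to 47.0% of each total RNA library and 53.9% to 70.4% of each RPF library) were left out of library sizes.

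Genes with over 1 CPM in at least 3 of 6 libraries were tested with edgeR 4.0.16 (quasi-likelihood F test, TMM, Benjamini-Hochberg, threshold 0.05, limma 3.58.1, R 4.3.3). DESeq2 1.42.0 was an alternative. TE was the genotype by library kind interaction, with TMM within kind. Fits were tested on simulated data. Log2 ratios used a pseudocount of 0.5 CPM. Annotation and sequences were GENCODE vM21 on GRCm38, which held 49326 of the 49585 genes. Python 3.11.15 was used for the rest. Same-numbered total RNA and RPF libraries of a genotype deviated together from their group means (correlations 0.12 to 0.41 over 6674 genes). These numbers may therefore pair, which the labels do not state. The reported TE fit has no block, and the blocked fit was an alternative. Between the 2 genotypes, same-numbered libraries gave correlations of -0.58 to 0.14. Only for RPF replicate 1 (0.142) was the correlation highest with its own number. The labels do not say whether replicates were separate mice, so p-values measure the spread between these samples, which may be technical.

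The members and lists were chosen with earlier results of these data known. A listed marker is not reported here. Named besides the members were Rnmt, Myc and, per pathway group, the 2 genes with the largest called change. The search for shared windows was added after the counts had been seen. Counts of both strands, other filters, normalizations and tests, and leaving out each replicate were tried as alternatives.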

Additional observations from a re-analysis of the deposited data

How the results depend on the processing

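In total RNA the members called numbered 4 in every alternative fit except that without Rnmt cKO replicate 3, which called 5 (adding Sat1). Of 112 refitted total RNA values, 110 kept direction and side of the threshold; Odc1 turned to 0.044 without Rnmt cKO replicate 3 (range -0.083 to 0.044 over the fits that left out a library). In RPF, 2 were called, against 3 without TMM, with at least 10 counts in every library or with protein-coding genes only (each adding Srm), 1 with DESeq2 (Srm), 1 with no filter on low counts (Sms), 0 with the edgeR exact test and 0 with the replicate block (3 members had an unadjusted p under 0.05 in each of the last pair), and 0 to 3 when 1 replicate was left out. The 0 came when control replicate 1 or 3, or Rnmt cKO replicate 1 or 2, was left out (3 to 4 members had an unadjusted p under 0.05). Of 98 RPF values, 71 kept both; Sat1 turned to -0.004 with no filter, -0.08 without control replicate 2 and -0.079 when Rnmt cKO replicate 3 was left out (highest 0.183), and Oaz2 to 0.141 when control replicate 1 was left out (lowest -0.548). In TE, 2 were called, against 1 (Srm) on library sizes without TMM, and 1 to 2 when 1 replicate was left out; of these fits, the one without control replicate 3 called 2. Of 91 TE values, 85 kept both and none turned. TE of Slc7a1, which was not called, ran from -0.273 to 0.064. The cause of these changes was not tested. In the replicate block of genotypes the numbers are only shared names; total RNA kept its 4 calls, and the block by number in TE kept 2 (Srm and Oaz1), changing no call of a member. Over all genes, 1047 were called in TE, against 540 to 1179 when a replicate of both kinds was left out. No scaling moved the median of all genes by over 0.04 (log2). RPF depth limits Amd1, Sms and Oaz2.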
